A study of Rattus norvegicus with 14 samples.

Results

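The histone genes examined here were the array probes whose accession leads, through the RefSeq rat gene table, to a symbol of the H1, H2A, H2B, H3 or H4 families. They were 48 of 30367 probes, and stood for 33 of the 15154 genes named on the array and 33 of the 97 histone-named genes in that table. By symbol, 29 probes of 21 genes belonged to the histone gene clusters (clustered histones), and 19 probes of 12 genes to histones named outside them (variant histones). H2bu1 and H3f4 count as variants by this rule, although they lie close to the clustered genes H2ac25 and Hist3h2ba on chromosome 10. The choice used names only, but the set was singled out with earlier results of these arrays in view, so all counts below describe these 14 arrays.

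The arrays measured total RNA from skin biopsies of male CD hairless rats, a strain whose coat is largely missing. The 6 exposed rats had received 94 GHz millimetre waves for 3 h per day on 3 days per week over 5.5 months, and the 8 sham rats were handled as unexposed controls. All rats lived in pairs; the pairs, the rats' age and the site of each biopsy are not stated in the labels. The design puts one question to these genes, whether their transcripts differed between exposed and sham skin.

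Histones are the proteins that package DNA: H2A, H2B, H3 and H4 form the nucleosome core, and linker H1 binds the DNA between cores. Genes of the clusters are transcribed mainly while a cell copies its DNA, and most of their mRNAs end in a stem-loop in place of a poly(A) tail. Variant or replacement histones such as H2A.Z, H3.3 and H1.0 are made in resting cells too, from polyadenylated mRNAs. Whether the labelling for these arrays took up both kinds of mRNA alike was not tested, which limits comparisons of clustered with variant probes. In skin, dividing cells lie in the basal epidermis and in the growing hair follicle, while most other cells are at rest.

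Promoters of 7 members are shown as examples, clustered genes named below with 3 variants to set beside them, and their choice follows no ranking. Of 33 genes, 32 had a promoter in the RefSeq table (build GRCr8); 16 of the 20 clustered genes with one lay on chromosome 17. Each line gives the 250 bases before the start of the gene, 5′ to 3′. Capitals mark a match to the sequence of a CCAAT box, a TATA box (TATAAA), an octamer (ATTTGCAT) or the H1 box (AAACACA), on either strand.
Hist1h2an, chr17:41962441-41962690, plus strand: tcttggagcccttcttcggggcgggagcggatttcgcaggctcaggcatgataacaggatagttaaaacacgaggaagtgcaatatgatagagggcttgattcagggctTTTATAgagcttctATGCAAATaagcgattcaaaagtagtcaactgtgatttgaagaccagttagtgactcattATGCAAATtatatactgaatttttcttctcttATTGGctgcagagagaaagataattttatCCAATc
Hist1h2af, chr17:41807654-41807903, minus strand: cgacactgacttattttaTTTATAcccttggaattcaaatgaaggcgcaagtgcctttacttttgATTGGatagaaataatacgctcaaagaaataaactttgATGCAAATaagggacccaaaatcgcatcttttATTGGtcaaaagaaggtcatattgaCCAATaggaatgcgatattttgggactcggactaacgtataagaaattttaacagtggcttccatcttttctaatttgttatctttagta
H2bc12, chr17:47181941-47182190, minus strand: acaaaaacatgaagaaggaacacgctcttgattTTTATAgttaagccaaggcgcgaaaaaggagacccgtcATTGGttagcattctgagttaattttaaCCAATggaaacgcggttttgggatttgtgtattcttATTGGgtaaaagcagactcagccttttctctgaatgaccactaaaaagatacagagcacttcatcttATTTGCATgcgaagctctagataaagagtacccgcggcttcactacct
H1f5, chr17:47421625-47421874, plus strand: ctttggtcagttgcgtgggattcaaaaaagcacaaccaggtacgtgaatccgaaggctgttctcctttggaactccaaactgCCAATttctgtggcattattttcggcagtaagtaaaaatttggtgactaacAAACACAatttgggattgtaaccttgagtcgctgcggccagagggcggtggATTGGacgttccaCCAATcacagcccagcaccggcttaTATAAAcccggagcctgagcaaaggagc
H1f0, chr7:112473030-112473279, plus strand: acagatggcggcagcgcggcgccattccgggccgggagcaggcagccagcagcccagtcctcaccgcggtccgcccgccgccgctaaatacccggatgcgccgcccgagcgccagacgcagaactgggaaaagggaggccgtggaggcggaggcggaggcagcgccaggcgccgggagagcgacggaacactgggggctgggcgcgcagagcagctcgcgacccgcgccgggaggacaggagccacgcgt
H2az1, chr2:229028845-229029094, plus strand: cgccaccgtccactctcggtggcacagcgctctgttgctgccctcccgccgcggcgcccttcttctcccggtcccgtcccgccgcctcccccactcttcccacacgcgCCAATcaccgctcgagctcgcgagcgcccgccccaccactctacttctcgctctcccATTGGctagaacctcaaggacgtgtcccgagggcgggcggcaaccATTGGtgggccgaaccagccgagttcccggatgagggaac
H3f3b, chr10:101757637-101757886, minus strand: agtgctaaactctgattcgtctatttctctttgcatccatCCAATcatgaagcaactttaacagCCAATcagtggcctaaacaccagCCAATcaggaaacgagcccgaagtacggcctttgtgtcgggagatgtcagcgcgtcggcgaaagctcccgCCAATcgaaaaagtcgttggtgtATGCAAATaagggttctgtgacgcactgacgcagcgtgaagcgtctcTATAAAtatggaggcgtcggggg

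The CCAAT box was present before 19 of 20 clustered genes and 10 of 12 variant genes, against 34.02% of all 33469 promoters of that length. TATAAA, on either strand and anywhere in the window, was found before 12 of 20 clustered and 2 of 12 variant genes, against 12.9% of all. For the clustered genes Hist1h2an, Hist1h2af, H2bc12 and Hist1h2bo and the variant H2ax it lay on the other strand only. Whether a match serves the gene it precedes was not tested. The octamer, known for its place in H2B promoters, occurred before 8 of 20 clustered genes and 2 of 12 variant genes, against 1.56% of all; the Hist1h2an window holds it at more than one place. AAACACA occurred before 5 of 20 clustered genes (H1f4, H1f5, H1f6, H2ac1 and H2bc1) and 2 of 12 variant genes, against 6.08% of all. No motif searched contains another. The windows of H2ac1 and H2bc1 overlap, as do those of H2ac25 and H2bu1, so these pairs are not separate cases. The windows of the variants H1f0 and H1f7 and of the clustered gene Hist1h4b carried none of the motifs.

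Most histone probes were above background in skin. A probe counted as measured when the scanner software placed it well above background on at least 6 of the 14 arrays, which held for 40 histone probes of 28 genes (26 clustered, 14 variant) and for 69.2% of all probes. On all 14 arrays it held for 37 histone probes and 60.9% of all, and no histone probe was saturated on any array. Members known mainly from the germ line made up much of the rest: of 7 such genes (H1f6, H1f7, H1f8, H2ac1, H2bc1, H2ab3 and H2ap), only H1f6, the testis H1, and H2ap were measured, on 12 and 9 arrays. H1f7, a spermatid H1, was above background on 0 arrays, H1f8, the oocyte H1, on 3, H2ac1 and H2bc1 on 2 and 1, and H2ab3 on 1. The other probes not measured were second probes of genes that had a measured one: Hist1h2an probe 2 (0 arrays), H2az2 probe 4 (2 arrays) and H2bu1 probe 2 (1 array). The germ-line grouping was made after these values were seen. The germ-cell markers Acr, Prm1 and Prm2, 3 of 6 listed, were also above background on all 14 arrays. The other listed germ-cell markers were on the array but not measured. Whether skin makes any of these germ-line transcripts was not tested, so being above background is not read here as showing that it does.

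No histone probe passed the test between exposed and sham skin after adjustment over all 21012 probes tested. limma with Benjamini-Hochberg adjustment called 0 of 40 histone probes, and 0% of all probes; the adjusted p was 0.9998 for each of the 40. At an unadjusted p under 0.05, 5 of 40 histone probes passed, 12.5%, against 3.38% of all probes (1.05% higher and 2.33% lower in exposed skin). With slides as a blocking term 3 histone probes passed (3.12% of all probes), and with array weights 14 (12.8% of all). On slide 3 alone 2 passed (2.69% of all), and on slide 4 alone 0 (1.54% of all). Leaving out exposed animal 1 gave 2 (3.00% of all), and leaving out sham animal 6 gave 11 (8.40% of all). Without sham animal 3, 5 or 7 there were 3, beside 3.26%, 2.77% and 2.48% of all. The groups overlapped for all 40 histone probes, whereas 0.0286% of all probes had no overlap. In fold terms the 95% interval of the difference lay within 2-fold either way for 39 of 40 histone probes and within 1.5-fold for 35.

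The differences, although small, were mostly on one side. The mean was higher in exposed skin for 36 of 40 histone probes, 25 of 26 clustered and 11 of 14 variant, against 43.5% of all probes. The 40 probes stand for 28 genes and are not separate cases. Pairs of clustered probes above background on all arrays had a median r of 0.471 over the animals. The median difference (log2, exposed minus sham) was 0.12 over the clustered probes, 0.060 over the variants and -0.018 over all probes. Single rats moved these medians: the clustered one was 0.061 without exposed animal 3, 0.080 without sham animal 7 and 0.19 without sham animal 6. The variant one was 0.034 without sham animal 2, 0.038 without sham animal 7 and 0.11 without sham animal 6. These shares moved with the slide: among the arrays of slide 3 (3 exposed, 3 sham) 35 of 40 were higher, and among those of slide 4 (1 exposed, 3 sham) 16 of 40, with all probes at 44.0% and 44.5%. The clustered median was 0.14 within slide 3 and -0.060 within slide 4, and with slide as a block 28 of 40 histone probes were higher (40.4% of all probes), with medians of 0.067 for clustered and 0.015 for variant probes, and -0.033 for all. Slide 1 held 2 sham and slide 2 held 2 exposed arrays, so on these slides slide and group cannot be told apart. In whole skin, a change in the number of cells that make a transcript and a change in its amount per cell cannot be told apart either.

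**Figure D1:**
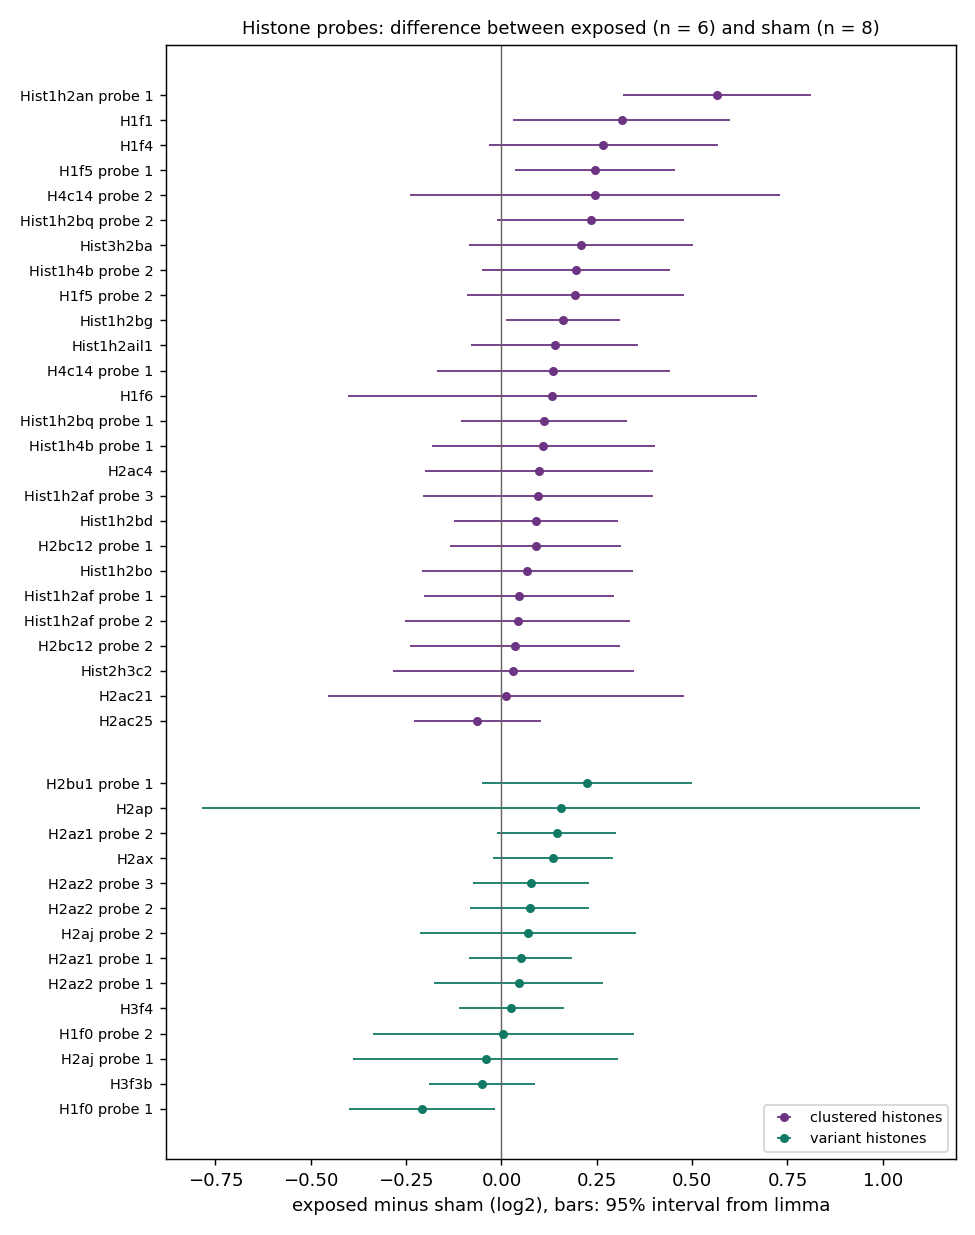
Difference between the means of 6 exposed and 8 sham rats (log2, horizontal axis) for each of the 40 measured histone probes, clustered histones above and variants below, with 95% intervals from limma as bars. Points lie right of 0 for 25 of 26 clustered and 11 of 14 variant probes, and 5 intervals leave out 0, from Hist1h2an probe 1 at 0.56 to H1f0 probe 1 at -0.21.

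Values below are log2 signal minus the array's own 75th percentile, so 0 is a probe as bright as that percentile of its array. Among the linker histones, all 5 probes of the clustered genes H1f1, H1f4, H1f5 and H1f6 had a higher mean in exposed skin, by 0.13 to 0.32. H1f5 probe 1 ran from 0.35 through a median of 0.57 to 0.62 in exposed rats and from 0.037 through 0.19 to 0.60 in sham rats. In 3 exposed rats it was above the highest sham rat, and all 6 were above the sham median. Its difference was 0.25 (SE 0.098), with an unadjusted limma p of 0.024 and an adjusted p of 0.9998. The second H1f5 probe followed it over the 14 animals (r = 0.871) and differed by 0.19 (SE 0.13).

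H1f1, a linker H1 of the cluster on chromosome 17, ran from -1.53 through -1.14 to -0.97 in exposed rats and from -1.84 through -1.56 to -1.10 in sham rats. All 6 exposed values were above the sham median and 2 above the highest sham rat, so the groups overlapped. The difference was 0.32 (SE 0.13; unadjusted limma p 0.032, adjusted p 0.9998), but within slide 4 it was -0.010. H1f4, which encodes another somatic H1, ran from 1.63 through 1.99 to 2.19 in exposed and from 1.38 through 1.62 to 2.18 in sham rats, a difference of 0.27 (SE 0.14). It too was above the sham median in 6 of 6 exposed rats, and it was -0.066 within slide 4. H1f6 lay near background, with a difference of 0.13 (SE 0.25).

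H1f0, whose H1.0 protein gathers in cells that have stopped dividing, was the linker histone on the lower side. Probe 1 ran from 3.48 through 3.70 to 4.02 in exposed rats and from 3.79 through 3.98 to 4.07 in sham rats. Below the lowest sham rat lay 4 of the 6 exposed rats, and the other 2 lay among the sham values. It differed by -0.21 (SE 0.090; unadjusted limma p 0.036, adjusted p 0.9998), by -0.20 within slide 3 and by -0.39 within slide 4. H1f0 probe 2 gave no such difference (0.0042, SE 0.16), and the probes of this gene were only weakly related over the animals (r = 0.360). The lower mean thus rests on 1 of 2 probes.

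Among the core H2A genes of the clusters, Hist1h2an probe 1 had the largest difference of the 40 histone probes. Hist1h2an is a canonical H2A gene of chromosome 17. In exposed rats the probe ran from -4.11 through -3.59 to -3.34, and in sham rats from -4.41 through -4.27 to -3.92. Above the highest sham rat lay 5 of 6 exposed rats; exposed animal 2, at -4.11, lay among the sham rats. The difference was 0.56 (SE 0.12; 95% interval 0.32 to 0.81), or 1.48-fold, with an unadjusted limma p of 0.00022 and an adjusted p of 0.9998. It was 0.61 within slide 3, 0.60 within slide 4, where 1 exposed rat stood against 3 sham rats, and 0.35 after normexp background correction. This probe rests on 1 spot per array, the second probe of the gene was above background on 0 arrays, and whether it reads Hist1h2an alone or also near-identical H2A genes was not tested. Hist1h2an probe 1 was also dim, with an exposed mean of -3.65. The germ-cell markers Prm1, Acr and Prm2 had exposed means of -3.10, -4.31 and -4.47, and were above background on all 14 arrays.

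The other H2A probes of the clusters had unadjusted p of 0.05 or more. Hist1h2af probe 1 ran from 4.00 through 4.26 to 4.50 in exposed and from 3.89 through 4.17 to 4.72 in sham rats, a difference of 0.046 (SE 0.12). H2ac4 ran from 4.53 through 4.72 to 4.97 in exposed and from 4.28 through 4.56 to 5.35 in sham rats, a difference of 0.099 (SE 0.14). In both, the exposed values lay inside the sham range, and sham animal 6 was the highest of all. The 3 Hist1h2af probes were nearly copies of each other over the animals (r from 0.952 to 0.978). Hist1h2ail1 differed by 0.14 (SE 0.10), with 6 of 6 exposed rats above the sham median. H2ac25, which has 10 spots per array, differed by -0.063 (SE 0.078) and had the smallest spread of the clustered probes (SD 0.129 over 14 animals), and H2ac21, above background on 13 arrays, by 0.012 (SE 0.22).

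All 9 measured H2B probes had a higher mean in exposed skin, by 0.035 to 0.23, and 1 of them had an unadjusted p under 0.05. That was Hist1h2bg, which ran from 1.34 through 1.49 to 1.66 in exposed and from 1.23 through 1.35 to 1.54 in sham rats. It exceeded the highest sham rat in 2 of 6 exposed rats, with a difference of 0.16 (SE 0.070; unadjusted limma p 0.037, adjusted p 0.9998). Hist1h2bq probe 2 differed by 0.23 (SE 0.11) with 3 of 6 exposed rats above every sham rat, while its probe 1 differed by 0.11 (SE 0.10). The 2 probes of this H2B gene were related over the animals at r = 0.637. Hist3h2ba and H2bu1, H2B genes outside the main cluster, differed by 0.21 (SE 0.14) and 0.22 (SE 0.13). Smaller values were found for Hist1h2bd (0.092, SE 0.10), Hist1h2bo (0.068, SE 0.13) and H2bc12 (0.089 and 0.035, SE 0.10 and 0.13).

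None of the H3 and H4 probes had an unadjusted p under 0.05. H4c14 and Hist1h4b, both encoding H4, had 4 probes with differences from 0.11 to 0.25, the largest from H4c14 probe 2 (0.25, SE 0.23), which also had the widest spread of the clustered probes seen on all arrays (SD 0.451). Hist2h3c2, a clustered H3 gene, ran from -0.91 through -0.29 to 0.096 in exposed and from -0.74 through -0.37 to 0.086 in sham rats. Both ends of its range were exposed rats, and the difference was 0.031 (SE 0.15). H3f3b, which encodes the replacement histone H3.3, ran from 4.18 through 4.33 to 4.51 in exposed and from 4.28 through 4.37 to 4.49 in sham rats, a difference of -0.050 (SE 0.065). H3f4, an H3 gene outside the main cluster, differed by 0.026 (SE 0.064). These last 2 probes had narrow spreads (SD 0.0945 and 0.0902), and their 95% intervals ran from -0.19 to 0.089 and from -0.11 to 0.16.

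Of the H2A variants, 0 of 9 measured probes had an unadjusted p under 0.05, and the smallest was 0.066, for H2az1 probe 2. H2az1 encodes H2A.Z.1, which sits at promoters and regulatory DNA; its probe 2 ran from 2.68 through 2.85 to 2.99 in exposed and from 2.52 through 2.68 to 2.83 in sham rats. Its difference of 0.14 (SE 0.073) came with 3 of 6 exposed rats above every sham rat, and probe 1 differed by 0.051 (SE 0.063). H2ax, whose protein is phosphorylated at DNA breaks, ran from -2.44 through -2.26 to -2.18 in exposed and from -2.59 through -2.39 to -2.26 in sham rats, a difference of 0.13 (SE 0.074). It was above every sham rat in 3 of 6 exposed rats. For H2az2, the gene of H2A.Z.2, the 3 probes differed by 0.046 to 0.078, and for H2aj, an H2A variant of mammals, the 2 probes by -0.041 and 0.070, with SE of 0.16 and 0.13. H2ap, near background, differed by 0.16 (SE 0.44). Over the 14 animals the median SD was 0.158 for variants, 0.257 for clustered probes and 0.245 for all probes.

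**Figure D2:**
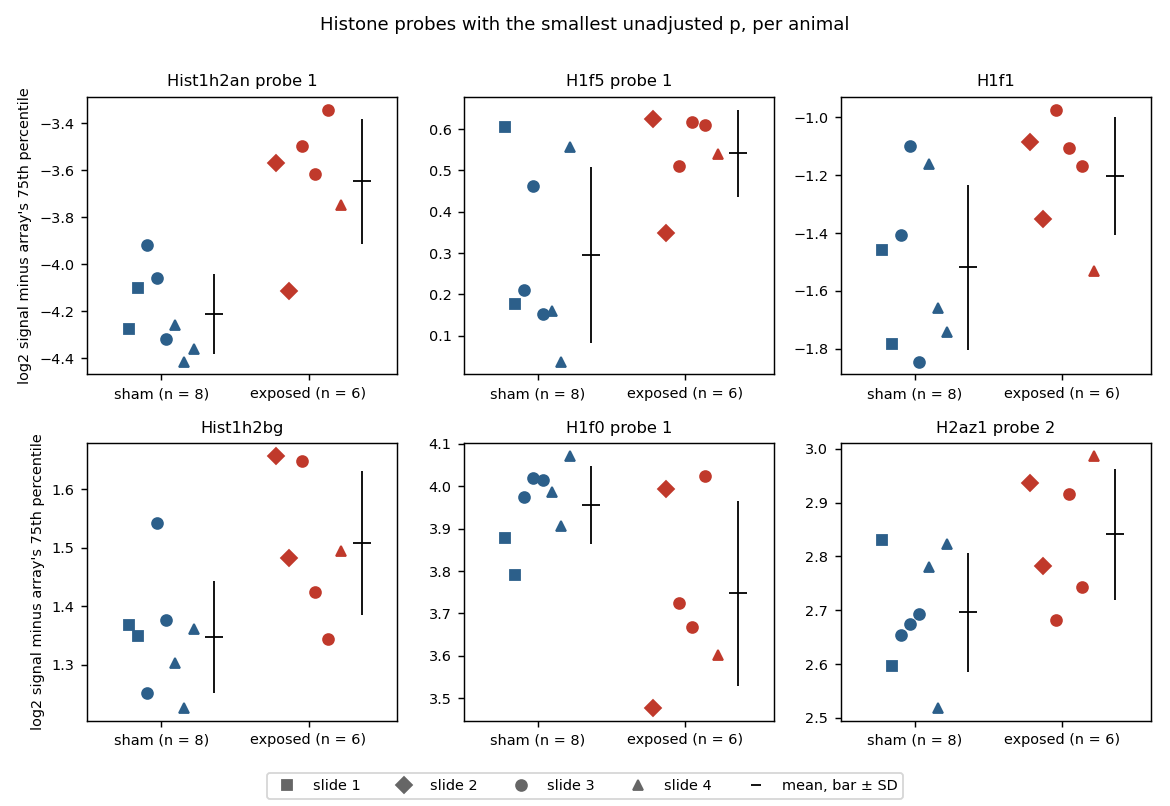
Value of each rat (log2 signal minus the array's 75th percentile, vertical axis) for the 5 histone probes with an unadjusted p under 0.05 and for H2az1 probe 2; marker shapes give the slide, and the black bars the group mean ± SD. In Hist1h2an probe 1 the exposed rats lie above the highest sham rat in 5 of 6 cases, while the other panels overlap more and H1f0 probe 1 is lower in exposed rats.

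Further histone genes lay outside the symbol rule. Cenpa, the H3 variant of centromeres, differed by 0.26 (SE 0.13) and Macroh2a1, a large H2A variant of silent chromatin, by 0.0072 (SE 0.065), both without an adjusted p under 0.05.

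Slides were compared directly on slides 3 and 4, which held both groups. With group in the model, limma called 0 of 40 histone probes between these slides, and 0% of all probes. At an unadjusted p under 0.05 there were 3 of 40 histone probes, against 3.65% of all. These were both H2bc12 probes, lower on slide 4 by -0.26 (SE 0.12) and -0.37 (SE 0.15), and Hist1h2an probe 1, lower by -0.25 (SE 0.11). The other 37 had an unadjusted p of 0.05 or more, and 20 of 40 were higher on slide 4.

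Array brightness was set against the histone values across animals. The brightness of the arrays (75th percentile of the spots) ranged from 804.5 to 1967 scanner units, and the histone values, which have that same percentile subtracted, were compared with it. A probe whose unscaled log2 signal climbs by less than 1 per unit of log2 array signal therefore gets a negative correlation by construction, so the values here are a description, with no p. For Hist1h2af probe 1 that slope was 0.428. Over 14 animals the lowest correlation with array signal belonged to Hist1h2af probe 1, with r = -0.931 and rho = -0.916, and without the 2 animals farthest from the median signal, sham animal 6 and exposed animal 3, r was -0.781. Within slides (slide means removed) it was -0.933. H2ac4 had r = -0.927 and Hist1h4b probe 1 r = -0.896, with -0.731 and -0.875 without those animals. After quantile normalization r was -0.323 for Hist1h2af probe 1, -0.379 for H2ac4 and -0.839 for Hist1h4b probe 1. Hist1h2an probe 1 had r = 0.0023, H1f5 probe 1 r = 0.022 and H1f0 probe 1 r = -0.024, and after normexp background correction Hist1h2an probe 1 had r = -0.504. The median r was -0.606 over 24 clustered probes, -0.366 over 13 variants and -0.109 over the 18507 probes above background on all arrays, and r was below -0.8 in 12 of 37 histone probes and in 10.04% of all.

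Apart from those after quantile normalization, the regression counts share that construction. Whether the authors' values share it is not known, because their normalization between arrays is not stated. In a limma regression on log2 array signal over all probes, 20 of 40 histone probes were called, beside 32.3% of all probes. These counts changed with 2 animals and with the scaling. Without sham animal 6 and exposed animal 3, 2 of 40 were called (1.13% of all), and without sham animal 6 alone 10 of 40 (5.30% of all). With slide in the model 18 of 40 were called (29.7% of all), and after normexp background correction 21 of 40 (51.3% of all). After quantile normalization 13 of 40 were called (28.6% of all), and 10 of the 34 tested were in the authors' deposited value table (32.2% of all). With quantile normalization r below -0.8 was left in 3 of 37 probes, H4c14 probe 1, Hist1h4b probe 1 and Hist2h3c2, and in 4.56% of all. There the clustered median r was -0.438 and the variant median 0.252, with H2az1 probe 1 going from -0.782 to 0.737 and H3f3b from -0.150 to 0.808.

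**Figure D3:**
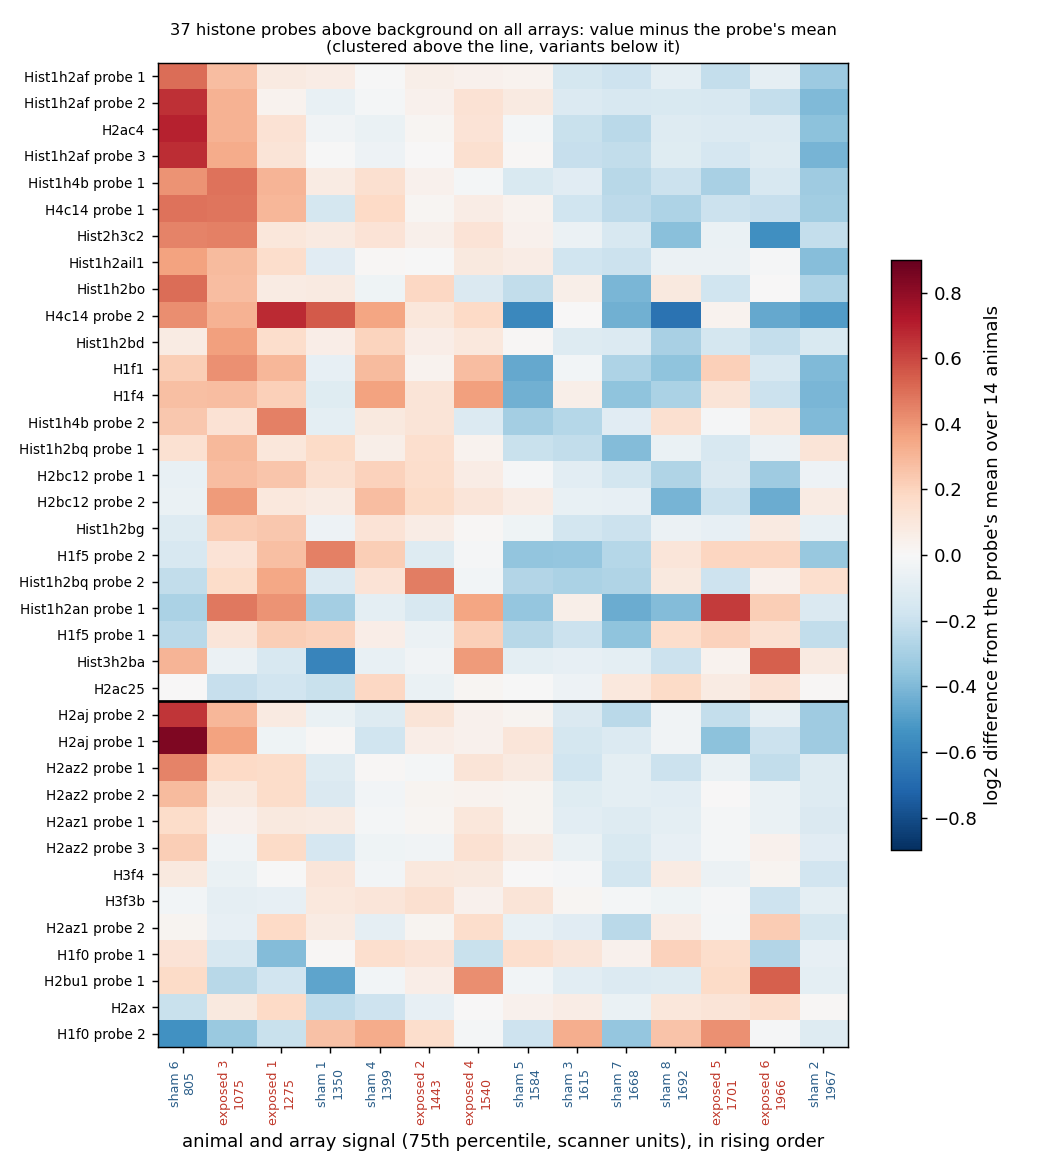
Value of each of the 37 histone probes above background on all arrays minus the probe's mean over 14 animals (log2, colour), with animals in columns from the dimmest array to the brightest and their 75th percentile in scanner units under each name (red, exposed; blue, sham). Probes at the top of each block, such as Hist1h2af and H2aj, go from high in sham animal 6 (804.5 units) to low in sham animal 2 (1967 units).

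**Figure D4:**
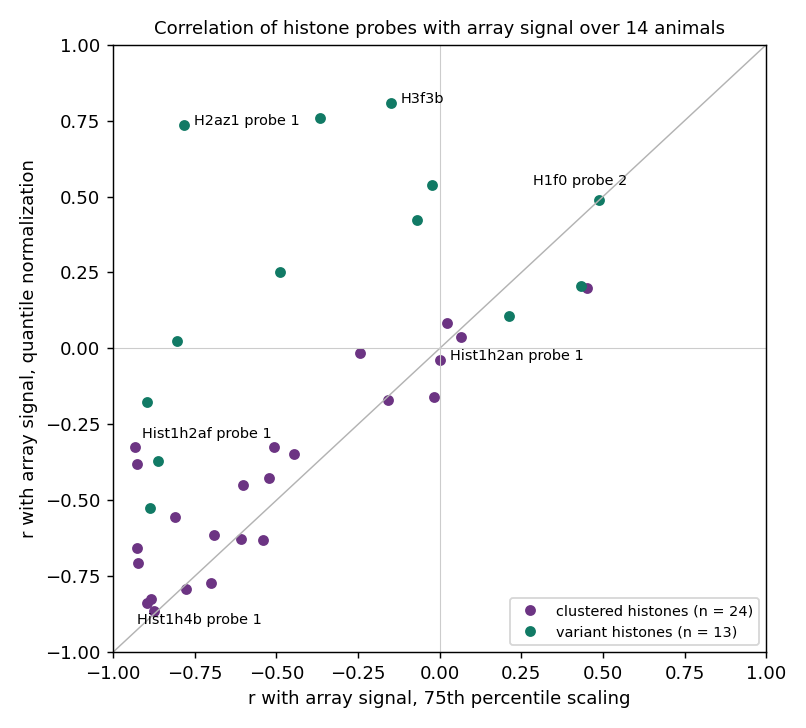
Pearson r of each histone probe with array signal over 14 animals, after the 75th percentile scaling (horizontal) and after quantile normalization (vertical); the line marks equal values. Most clustered probes (n = 24) are negative on both axes, while variants such as H2az1 probe 1 and H3f3b move from negative to positive r.

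Because clustered histones are made in S phase, their relation to DNA replication genes was examined over the same animals. A score over 40 measured replication genes (Mcm, Orc, Gins and polymerase subunits among them) ran from -0.13 to 0.20 in exposed and from -0.40 to 0.15 in sham rats. The median r with this score was -0.297 over clustered and -0.235 over variant probes, and 9 of 37 had a positive r. Over the 18507 probes above background on all arrays the median r was -0.045, and 8759 had a positive r. In a limma regression over all probes, 2 of 37 were called, both H2aj probes, with negative r (-0.704 and -0.668). The share called was 17.8% of the 21012 probes tested, a set that also holds probes above background on fewer arrays. Without sham animal 6 and exposed animal 5, the animals farthest from the median score, 0 of 37 were called and 0% of all, and r for H2aj was 0.0093 and -0.057. H1f5 probe 1 had the highest r among the clustered probes, 0.463 (permutation p 0.089, two-sided), and 0.254 without those animals. That p makes no allowance for the choice of the highest r. In the limma regression its adjusted p was 0.21, and 0.96 without those animals. Sham animal 6 had the lowest replication score and the dimmest array alike, and the part of each in this relation was not tested.

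Pairs of probes were also compared over the 14 animals. The median r between pairs of clustered probes was 0.471 (276 pairs), against 0.135 between variants (78 pairs) and 0.228 between the classes (312 pairs), as a description of 14 shared arrays. After the line on array signal was removed these were 0.274, 0.224 and 0.114, and after quantile normalization 0.442, 0.174 and 0.039. By animal, the mean of the clustered probes, each centred on its own mean, ran from -0.090 through 0.11 to 0.24 in exposed and from -0.23 through -0.12 to 0.25 in sham rats. The highest sham value was that of sham animal 6, and the groups overlapped. For variants the range was -0.041 to 0.083 in exposed and -0.18 to 0.25 in sham rats.

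The machinery around histone genes showed no call either. The list for transcription of histone genes and handling of their mRNA had 14 measured members, 8 higher and 6 lower in exposed skin, with 0 called and 0 with an unadjusted p under 0.05. For this list and the next, 43.5% of all probes were higher and 3.38% had an unadjusted limma p under 0.05. In it, Npat, the cyclin E target that switches on the clusters, differed by 0.21 (SE 0.15) and Casp8ap2 by 0.11 (SE 0.10). Slbp, which binds the stem-loop, differed by -0.050 (SE 0.086), and Lsm10 and Lsm11 of the U7 particle that cuts histone mRNA by 0.082 (SE 0.084) and -0.16 (SE 0.20). Of 20 measured histone chaperones, 7 were higher and 13 lower, with 0 called, and Supt16h of the FACT complex differed most in p (-0.27, SE 0.14).

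The cell cycle genes were counted in the same way. Of 40 measured replication genes 23 were higher and 17 lower, with 0 called and 1, Ccne1 (0.18, SE 0.076), under an unadjusted p of 0.05, and Orc6 differed by 0.32 (SE 0.17). Of 20 measured mitosis genes 18 were higher and 2 lower, with 0 called and 1, Ube2c (0.18, SE 0.082), under that threshold, and Ccna2 differed by 0.18 (SE 0.093). The mitosis list had a median difference of 0.093, and that of replication 0.017, beside -0.018 over all probes. Of all probes 43.5% were higher in exposed skin, and 3.38% had an unadjusted limma p under 0.05.

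The biopsies were skin, with keratinocyte markers measured for 5 of 6 and fibroblast markers for 6 of 6 listed genes, and their muscle and hair content differed between animals. The mean of the muscle markers, each centred on its own mean (7 of 8 measured), ran from -1.97 to 4.92 in exposed and from -2.73 to 3.58 in sham rats, with 7 of 7 higher in the exposed mean and a median difference of 1.58. Hair follicle markers (6 of 8 measured) had 6 of 6 higher, ran from -1.49 to 1.72 and from -1.89 to 1.42, and had a median difference of 0.74. Krt73 and Krt35, follicle keratins, differed by 1.05 (SE 0.53) and 1.33 (SE 0.78), and Myl11 and Tnnc2 of muscle by 1.96 (SE 1.44) and 1.85 (SE 1.44). Adipocyte markers were higher for 3 of 3 measured, macrophage markers lower for 5 of 5, and T cell markers 2 higher and 3 lower, with 0 called in any list. Among them Adipoq and Cidec differed by 0.35 (SE 0.30) and 0.39 (SE 0.36), Cd68 and Csf1r by -0.23 (SE 0.13) and -0.29 (SE 0.20), and Cd3d and Cd2 by -0.053 (SE 0.18) and 0.040 (SE 0.16). Keratinocyte and fibroblast markers were lower for 4 of 5 and 5 of 6, with Dsg3 and Krt1 at -0.13 (SE 0.081) and -0.14 (SE 0.12) and Dcn and Col1a1 at -0.18 (SE 0.16) and -0.16 (SE 0.18). Of 6 germ-cell markers 3 were measured, each on 14 arrays: Acr (-0.19, SE 0.19), Prm2 (0.083, SE 0.27) and Prm1 (-0.055, SE 0.24). Beside these marker counts, 43.5% of all probes were higher in exposed skin and 0% were called. The part of tissue content in the histone values was not tested.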

How the data were processed

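Total RNA of 14 skin biopsies was hybridised to one-colour Agilent arrays, 1 per rat, and the deposited scanner files give one background-subtracted intensity per spot, made by the authors with Agilent Feature Extraction 10.7.3.1 per the file headers (array design on build rn4). Each array had 62976 spots, of which 4259 controls were left out, with outlier spots. Intensities were put on a log2 scale relative to the array's 75th percentile (804.5 to 1967 scanner units), and spots of a probe were averaged. The 21012 of 30367 probes well above background on at least 6 arrays were kept; their number, 14 arrays, limits the precision. A further deposited log2 value table, centred per probe by the authors, served as an alternative; its normalization between arrays is not stated in the labels or headers. Accessions were named through the RefSeq table (GRCr8), which matched 17998 probes (59.3%); promoters came from RefSeq GRCr8.

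Exposed and sham rats were compared with limma 3.58.1 (R 4.3.3), two-sided, with Benjamini-Hochberg adjustment over all kept probes, after a check on simulated data. Named genes were the 5 histone probes with the smallest p each way, every kept variant, clustered probes seen on all arrays or with the widest or narrowest spread, chosen histone mRNA genes, and the 2 smallest p of each other list; 1 brightest probe stood for a listed gene. Alternatives were normexp (offset 50), quantile normalization, other filters, slide as a block, array weights, covariates, the deposited table and leaving out each array. Members and lists were chosen with earlier results of these data known, so the planned adjustment over the histone probes alone is not printed, and a regression adjusted over all probes was added. Labels give no cage or litter, so p-values measure the spread between these rats only.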

Additional observations from a re-analysis of the deposited data

Results flagged for a closer look

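Single animals stood far from their group in 8 of 80 groups of values (40 histone probes in exposed and sham rats), by a gap to the nearest other animal that was large against the range of the group. Chance marks about 1 in 20 groups, and probes of one gene or family are not separate cases. Sham animal 6 was the highest sham rat in 7 of these. Its log2 values relative to the 75th percentile were 5.35 for H2ac4, 5.63 and 5.24 for H2aj probes 1 and 2, 3.89 and 3.49 for H2az2 probes 1 and 2, and 4.54 and 4.34 for Hist1h2af probes 2 and 3. The same rat had the dimmest array (804.5 scanner units), the lowest DNA replication score (-0.40) and the lowest mitosis score (-0.45), and a low array weight of 0.126; the part of these in its histone values was not tested. The remaining case was H2bu1 probe 1, where sham animal 1 was the lowest sham rat at -2.64, with the nearest at -2.29.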

How the results depend on the processing

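The 0 histone probes called between exposed and sham rats stayed 0 in every alternative run, as did the 0 called between slides 3 and 4. Among other counts, 5 probes with an unadjusted p under 0.05 became 14 with array weights, 3 with the slide block, 0 on slide 4 alone and 2 on slide 3 alone, and ranged from 2 to 11 when each rat was left out. The median difference within slide 4 was -0.060 for clustered and -0.070 for variant probes, and with each rat left out it ranged from 0.061 to 0.19 and from 0.034 to 0.11 over all slides. Relations to the replication score were 0 as planned and 2 in the added regression. Those to array signal, 20, were 13 after quantile normalization, 2 without 2 animals and 10 of 34 tested with the authors' table, and ranged from 10 to 20 with each rat left out. Analyses with array signal or H2bu1 and H3f4 counted as clustered were chosen after seeing the data.

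Of 40 histone probes, 16 kept their sign in every alternative. Differences that turned sign were, with array weights, H1f0 probe 2 at -0.049 and H2aj probe 1 at 0.068, and with the replication score as a covariate -0.029 and 0.0015. With slide as a block they were H1f0 probe 2 -0.024, H2bc12 probes 1 and 2 -0.025 and -0.083, Hist1h2af probes 1 and 2 -0.0012 and -0.036, Hist2h3c2 -0.086, H2ac21 -0.22 and H2az2 probe 1 -0.022. Within slide 3 they were H2aj probe 1 0.087, H2ac21 -0.040 and H1f0 probe 2 -0.14. Within slide 4, where 1 exposed rat stood against 3, they were Hist1h2ail1 -0.044, Hist1h2af probes 1 to 3 -0.16, -0.34 and -0.23, Hist1h2bd -0.10, Hist1h2bo -0.054, Hist1h4b probe 1 -0.14, H4c14 probes 1 and 2 -0.20 and -0.24, H2az2 probes 1 and 2 -0.28 and -0.096, H2az1 probe 1 -0.045, H2ap -0.79, H2aj probe 2 -0.20, H2ac4 -0.23, H2ac25 0.042, H2ac21 -0.60, H1f4 -0.066, H1f1 -0.010, H2bc12 probes 1 and 2 -0.15 and -0.27, and Hist2h3c2 -0.53. Leaving out each rat turned 8 probes, with ranges of -0.077 to 0.071 for H1f0 probe 2, -0.10 to 0.17 for H2ac21, -0.12 to 0.076 for H2aj probe 1, -0.15 to 0.35 for H2ap, -0.037 to 0.13 for H2bc12 probe 2, -0.0045 to 0.12 and -0.015 to 0.14 for Hist1h2af probes 1 and 2, and -0.056 to 0.15 for Hist2h3c2. The cause was not tested. No paired analysis was possible because the titles give slide and array positions, not a number that pairs 1 exposed with 1 sham rat; slides that held both groups served as the block above.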
